A study of Mus musculus with 81 samples.

Results

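Copper handling and metallothionein genes were described as a set of 9 members of the 25124 genes in the tables: Mt1, Mt2, Slc31a1, Slc31a2, Atp7a, Ccs, Sod1, Atox1 and Commd1. They were chosen by symbol, because the diet used to strip myelin in this study, cuprizone, is a copper chelator. Polyadenylated RNA had been sequenced from sorted microglia, the resident macrophages of the brain, in 81 libraries that form 28 groups of genotype, diet and sorting gate. All mice were adult male C57BL/6 animals, and the brains of 2 to 6 mice were pooled for a library. Groups held 2 libraries (5 groups), 3 (21 groups) or 4 (2 groups).

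The genotypes were wild type (WT), Trem2KO, which lack the lipid-sensing receptor Trem2 in all cells, and 3 lines with the Cx3cr1CreERT2 driver, active in microglia and other macrophages. Of these, Cx3cr1CreERT2/WT mice (Cre) were the controls, and Cx3cr1CreERT2/WT::Mef2afl/fl (Mef2aKO) and Cx3cr1CreERT2/WT::Egr2fl/fl (Egr2KO) mice carried a floxed transcription factor gene. When or whether tamoxifen was given is not stated in the labels. Mice ate a regular diet (baseline) or 0.2% cuprizone for 4 weeks (WT, Trem2KO), 5 weeks (Cre, Mef2aKO and whole populations of Cre and Egr2KO) or 6 weeks (Cre, Egr2KO). Cuprizone cells were sorted by the surface proteins CD229 and CD11c, at 5 weeks also by Clec7a, a lectin receptor of activated microglia. Baseline cells were taken as low for CD44, CD45 and CD11b. They were not split by the other proteins, except in 1 set of Mef2aKO baseline libraries split by CD229. The step from baseline to the CD229neg (at 5 weeks Clec7aneg) cuprizone gate, called the diet step, therefore changes diet and gate together. The cell buffer held flavopiridol, which blocks transcription, and sodium butyrate, an inhibitor of histone deacetylases, in all groups.

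Copper is needed by respiration and by antioxidant enzymes, and is toxic when free, so cells hand it from protein to protein. The plasma membrane importer Slc31a1 brings it in, and Slc31a2, a relative found mainly in endosomes and lysosomes, affects how much stays available. Atox1 carries copper to the Golgi pump Atp7a, Ccs inserts it into the superoxide dismutase Sod1, and Commd1 takes part in the trafficking of copper pumps. Mt1 and Mt2 are small cysteine-rich proteins that bind zinc and copper. Their genes are switched on by the metal-sensing factor Mtf1 and by glucocorticoids.

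Mt2 and Mt1 lie side by side on chromosome 8 of the mm10 build, Mt2 at 94172618 to 94173567 and Mt1 at 94179089 to 94180327, both on the plus strand. Their promoters are shown because metal-responsive promoters carry short elements that Mtf1 binds. The pair moved together across groups, but Mt1 was closer in pattern to Slc31a1, Atox1, Sod1 and Commd1 than to Mt2. Each line is the 250 bases before the gene's start in RefSeq's GRCm38.p6 annotation, plus strand, 5′ to 3′, chr8:94172368-94172617 for Mt2 and chr8:94178839-94179088 for Mt1. Capitals mark matches to TGCACNC or TGCGCNC on either strand.

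Mt2: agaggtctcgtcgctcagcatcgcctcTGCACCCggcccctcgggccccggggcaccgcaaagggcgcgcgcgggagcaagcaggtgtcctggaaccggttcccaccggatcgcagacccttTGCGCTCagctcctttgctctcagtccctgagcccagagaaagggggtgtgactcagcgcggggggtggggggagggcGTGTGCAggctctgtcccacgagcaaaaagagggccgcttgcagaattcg
Mt1: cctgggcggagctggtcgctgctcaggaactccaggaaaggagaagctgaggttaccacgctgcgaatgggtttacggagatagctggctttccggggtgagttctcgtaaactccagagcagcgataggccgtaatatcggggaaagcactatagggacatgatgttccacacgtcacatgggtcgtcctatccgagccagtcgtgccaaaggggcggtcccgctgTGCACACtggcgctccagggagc

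The Mt2 promoter held 3 matches, 1 of them on the opposite strand, and the Mt1 promoter held 1. Over all 32851 promoters of this length, 7032 (21.4%) held at least 1 match and 415 (1.26%) held at least 3. Of the other members, Atp7a had 2 matches, Slc31a2 had 1, Commd1 had 1 in each of its 2 promoters, and Slc31a1, Sod1 and Atox1 had 0. Ccs had no entry. A match describes letters in this window and is not evidence of binding. Bases after each listed start were not searched, so these counts do not rank Mt1 and Mt2 by such elements.

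Total counts ran from 4387075 to 13972985 per library, with a median of 9549766. The microglial label was checked against 8 markers (P2ry12, Tmem119, Cx3cr1 and others): all 8 were measured, with a summed level of 5788 to 15196 CPM, counts scaled to a common library size. Markers of neurons (up to 4.21 CPM), neutrophils (12.6), T and NK cells (3.84), B cells (27.97) and monocytes (34.7) stayed low. Summed markers of oligodendrocytes (129 to 187 CPM), astrocytes (81.8 to 254), endothelium (26.2 to 323) and border macrophages (7.38 to 315) were higher. Among them Mog of oligodendrocytes and Cldn5 of endothelium were at 0 at the median of the libraries. Trem2 itself was at 87.7 to 165 CPM in Trem2KO libraries against 293 to 706 in the others. Within matched gates Egr2 was lower in Egr2KO than in Cre libraries, without overlap, in whole populations (18.6 to 26.5 against 68.5 to 70.5 CPM), 6-week CD229neg cells (9.71 to 11.3 against 13.8 to 25.6) and CD11cpos cells (76.4 to 87.0 against 96.6 to 117). It overlapped at baseline and in CD229pos cells. Mef2a overlapped between Mef2aKO and Cre libraries at baseline, in Clec7apos CD229neg and in CD11cpos cells, and was above the Cre libraries in Clec7aneg cells (855 to 927 against 751 to 842) and Clec7apos CD229pos cells (595 to 606 against 492 to 583). Counts over a whole gene do not check the loss of a floxed exon.

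Per kilobase of transcript, the median levels over the 81 libraries were highest for the chaperone Atox1 (79.5 RPKM), Sod1 (70.4) and Mt1 (62.0). Slc31a2 (34.7), Slc31a1 (22.2), Atp7a (21.6), Ccs (20.0) and Commd1 (19.2) followed. Mt2 was far below its neighbour, at a median of 2.50 RPKM and 0 to 62 reads per library, so its changes are the least precise. Mt1 and Mt2 are close paralogs, and reads that match both could have been split or dropped in counting.

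Between groups, mean CPM varied most for Mt2 (8.82 times from the lowest to the highest of the 28 group means) and Mt1 (3.65 times). Atox1 varied 3.10 times, Sod1 2.38, Commd1 2.33 and Slc31a1 2.14. Ccs (1.49), Slc31a2 (1.46) and Atp7a (1.38) varied least. The order of group means for Mt1 began with the unsplit baseline groups, 16.8 ± 1.10 (SD, n = 3) in Trem2KO to 20.0 ± 2.92 (n = 3) in Mef2aKO. It ended with WT CD229pos CD11cneg cells at 4 weeks, 61.2 ± 4.66 (n = 3). Of the 27 pairs of neighbours in that order, 25 overlapped in their libraries, so single steps of the order are not resolved. For the other members 26 or 27 of the 27 pairs overlapped.

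**Figure D1:**
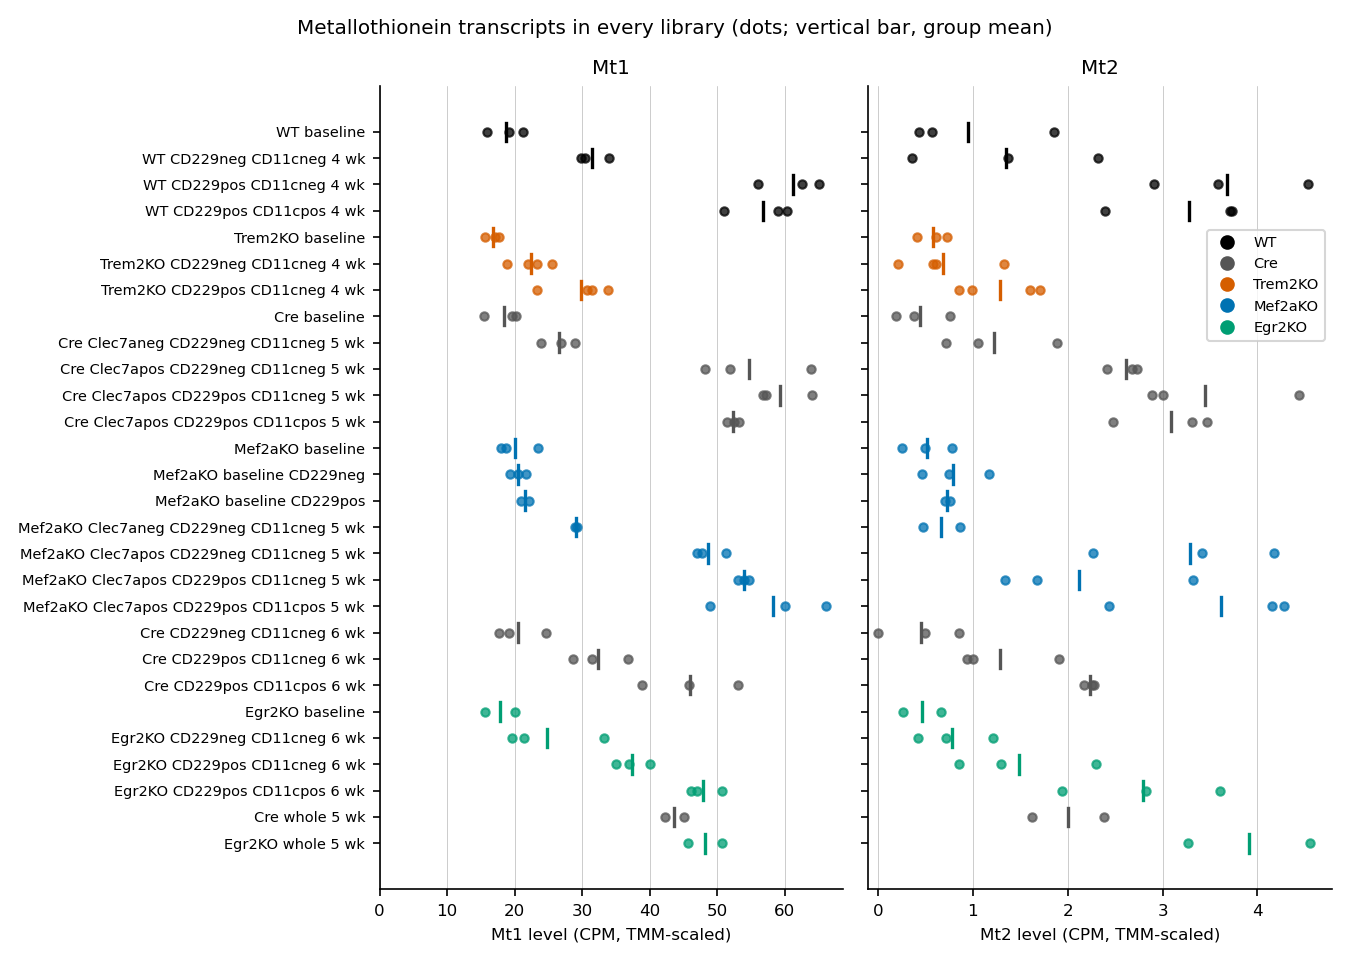
Levels of Mt1 and Mt2 in CPM (horizontal axes, separate scales) in each of the 81 libraries, by group (vertical axis), with 1 point per library, a vertical bar at the group mean and colours for genotypes. Mt1 group means run from 16.8 CPM in Trem2KO baseline to 61.2 CPM in WT CD229pos CD11cneg cells at 4 weeks, and Mt2 stays at or under 4.56 CPM.

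In WT mice, Mt1, Slc31a1, Atox1 and Sod1 rose from baseline to the CD229neg cuprizone cells and again to the CD229pos cells, and Mt2 and Commd1 rose in the second step. Differences are log2 fold changes ± SE from edgeR's quasi-likelihood test, with p-values adjusted over all tested genes and 0.05 as the threshold. Mt1 was at 21.2, 19.1 and 15.8 CPM at baseline, at 30.5, 29.8 and 34.0 in CD229neg cells and at 65.0, 62.6 and 56.0 in CD229pos cells. The 3 sets did not overlap. Mt1 rose by 0.75 ± 0.13 (adjusted p = 3.8e-05) from baseline to CD229neg and by a further 0.95 ± 0.12 (1.8e-07) to CD229pos. Mt2 was at 1.85, 0.44 and 0.57 CPM, then 0.36, 1.38 and 2.32, then 4.53, 2.91 and 3.59. Its baseline and CD229neg libraries overlapped (0.54 ± 0.55, adjusted p = 0.49), and it rose from CD229neg to CD229pos by 1.41 ± 0.48 (0.016). In these bulk libraries, fewer cells that express a gene and less RNA per cell cannot be told apart.

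Of the transporters in WT cells, the importer Slc31a1 went the same way as Mt1. It was at 62.6, 64.5 and 63.2 CPM at baseline, 75.5, 72.5 and 81.1 in CD229neg and 114, 116 and 110 in CD229pos cells, with no overlap. The first step was a rise of 0.27 ± 0.06 (adjusted p = 0.0020) and the second of 0.57 ± 0.06 (4.0e-08). Slc31a2 went against the others in the CD229 step. It was at 56.9, 63.6 and 64.3 CPM in CD229neg and 54.8, 55.7 and 52.4 in CD229pos cells, a fall of -0.19 ± 0.07 (0.036). That call was lost in 15 of 23 fits without 1 library (adjusted p 0.0524 to 0.192) and with DESeq2. The pump Atp7a passed no test in any of the 32 comparisons of the reported fit, and its WT libraries lay between 152 and 216 CPM. Some alternatives called it, as given below for transcript length.

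Among the chaperones and their client in WT cells, Atox1 was at 25.1, 22.0 and 30.2 CPM at baseline, 43.5, 35.4 and 46.9 in CD229neg and 67.3, 74.1 and 65.8 in CD229pos cells. It rose by 0.71 ± 0.13 (adjusted p = 0.00013) and then by 0.71 ± 0.12 (3.0e-05). Sod1, which removes superoxide, was at 34.0, 23.8 and 27.2 CPM, then 40.2, 44.4 and 44.9, then 69.6, 62.3 and 65.2. It rose by 0.61 ± 0.12 (0.00020) and 0.60 ± 0.11 (7.7e-05). Neither gene's 3 groups overlapped. Commd1 was at 12.4, 10.7 and 13.2 CPM, then 14.3, 13.8 and 15.1, then 22.9, 20.9 and 24.6. It passed in the CD229 step (0.66 ± 0.16, 0.0015). Ccs, which loads Sod1, passed no test in any of the 32 comparisons.

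Counted together, 4 of 9 members rose from WT baseline to CD229neg, where 30.4% of all 12647 tested genes were called and 18.8% rose. In the CD229 step 6 rose and 1 fell, against 48.8% called, 24.6% rising and 24.2% falling over all genes. The members' median log2 fold changes were 0.30 and 0.60, and those of all genes 0.00 and -0.01. In the CD11c step within WT CD229pos cells, 1 of 9 members was called, against 23.3% of all genes called and 11.8% rising. This was Slc31a2, at 78.8, 83.4 and 68.0 CPM in CD11cpos cells, above all 3 CD11cneg libraries (0.50 ± 0.07, 1.1e-05). There Mt1 had -0.11 ± 0.11 and Atox1 -0.03 ± 0.12.

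**Figure D2:**
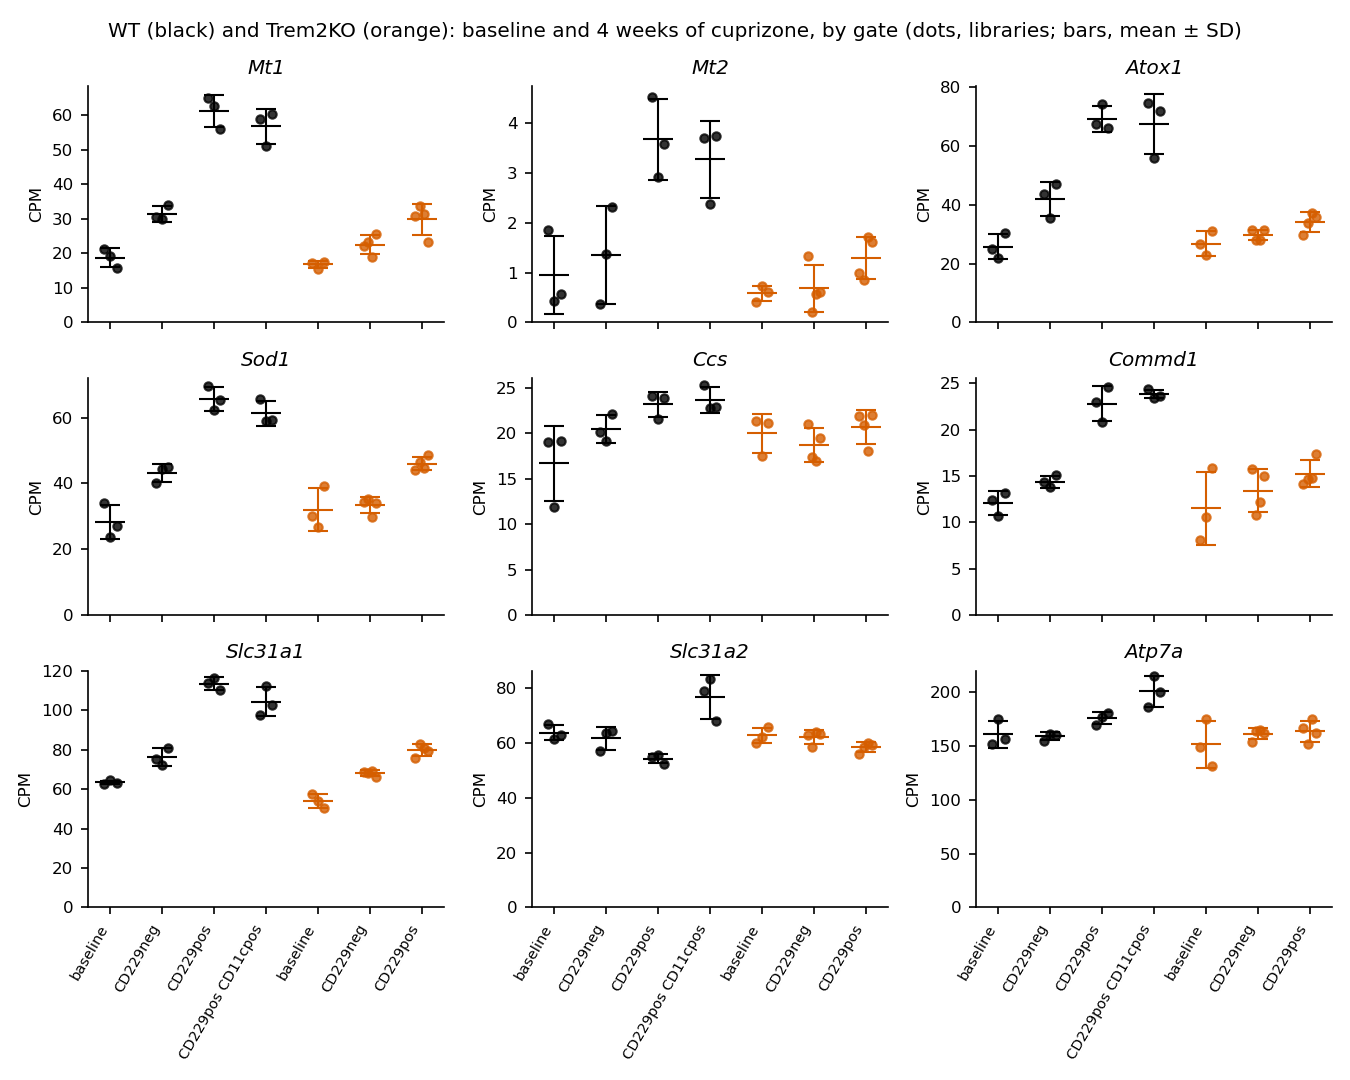
Levels in CPM (vertical axes, 1 panel per member) of the 9 members in the WT (black) and Trem2KO (orange) groups at baseline and 4 weeks (horizontal axis), with dots for libraries and bars for the mean ± SD. In WT cells Mt1, Slc31a1, Atox1 and Sod1 step up from baseline to CD229neg to CD229pos, and their Trem2KO CD229pos libraries lie below the WT ones.

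Mt1, Atox1 and Sod1 were lower in Trem2KO than in WT cells in both cuprizone gates compared, and Mt2, Slc31a1 and Commd1 in the CD229pos gate. At baseline 0 of 9 members were called by edgeR or by DESeq2, against 0.577% of all genes. The only one under an unadjusted p of 0.05 was Slc31a1 (-0.22 ± 0.07, adjusted p = 0.18). In CD229neg cells 3 members were lower in Trem2KO, against 20.3% of all genes called and 13.1% lower. In CD229pos cells 6 were lower, against 52.5% called and 26.5% lower. The members' median in CD229pos cells was -0.52, and that of all genes was 0.01.

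Mt1 was at 22.0, 23.3, 18.9 and 25.5 CPM in Trem2KO CD229neg cells and at 30.7, 33.8, 31.5 and 23.4 in Trem2KO CD229pos cells. All 4 of the latter were below the lowest WT CD229pos library (56.0 CPM). The differences from WT were -0.48 ± 0.12 (adjusted p = 0.0041) in CD229neg and -1.03 ± 0.11 (1.1e-08) in CD229pos cells. Mt2 was at 1.00, 0.86, 1.71 and 1.61 CPM in Trem2KO CD229pos cells, -1.55 ± 0.45 (0.0049) from WT, again with no overlap.

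The importer Slc31a1 was at 76.1, 83.1, 80.7 and 79.3 CPM in Trem2KO CD229pos cells, below every WT library of that gate (-0.51 ± 0.06, adjusted p = 5.3e-08). In CD229neg cells it had -0.16 ± 0.06 (0.059). Atox1 showed the widest gap among the chaperones. It stood at 29.5, 33.9, 37.2 and 35.8 CPM in Trem2KO CD229pos cells, lower than WT by -1.02 ± 0.12 (4.0e-08). Sod1, at 44.1, 46.4, 44.8 and 48.5 CPM, differed by -0.52 ± 0.10 (0.00015). Commd1, at 14.1, 14.6, 14.8 and 17.4 CPM, differed by -0.60 ± 0.15 (0.0018). In CD229neg cells Atox1 (-0.49 ± 0.12, 0.0046) and Sod1 (-0.37 ± 0.11, 0.018) were the other 2 that fell. Atox1 lost that call without WT CD229neg replicate 3 (adjusted p = 0.0640). Sod1 lost it without WT CD229neg replicate 2 or 3 or Trem2KO CD229neg replicate 3 (0.0556 to 0.0963).

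Within Trem2KO mice, 2 of 9 members rose from baseline to CD229neg, against 7.28% of all genes called and 5.42% rising: Mt1 (0.42 ± 0.12, adjusted p = 0.035) and Slc31a1 (0.33 ± 0.06, 0.00071). Leaving out any 1 of 5 libraries ended the Mt1 call (0.0636 to 0.160). From CD229neg to CD229pos 3 of 9 rose, against 27.5% called and 14.8% rising: Mt1 by 0.41 ± 0.11, Slc31a1 by 0.22 ± 0.06 and Sod1 by 0.45 ± 0.10.

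The difference between the genotypes' steps was tested directly. For the diet step 0 of 9 members passed, against 3.95% of all genes, where 3 had an unadjusted p under 0.05 and DESeq2 called 1, with Sod1 at -0.55 ± 0.16 (adjusted p = 0.052) and Atox1 at -0.56 ± 0.18 (0.077). For the CD229 step 3 of 9 passed, all smaller in Trem2KO, against 14.8% of all genes called and 5.77% smaller. They were Mt1 (-0.54 ± 0.16, 0.021), Slc31a1 (-0.35 ± 0.09, 0.0059) and Atox1 (-0.53 ± 0.17, 0.034). The Mt1 call was lost without any 1 of 5 libraries (0.0503 to 0.0637) and the Atox1 call without any 1 of 8 (0.0518 to 0.132).

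In Cre control mice at 5 weeks, the metallothioneins, Slc31a1, Atox1, Sod1 and Commd1 were higher in Clec7apos than in Clec7aneg cells. From Cre baseline to Clec7aneg cells 4 of 9 members rose, against 28.8% of all genes called and 15.5% rising. From Clec7aneg to Clec7apos cells 6 of 9 rose, against 37.9% and 20.9%. Medians over the members were 0.35 and 0.51, and over all genes -0.01 and 0.00. The 3 Cre baseline libraries also serve as the control of the 6-week experiment and of the baseline gates, so those comparisons share them.

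Mt1 was at 15.5, 20.2 and 19.6 CPM in Cre baseline cells, at 23.9, 26.9 and 28.97 in Clec7aneg and at 48.1, 51.9 and 64.0 in Clec7apos CD229neg cells. It rose by 0.51 ± 0.12 (adjusted p = 0.0017) and by 1.04 ± 0.11 (5.7e-09), with no overlap at either step. Mt2 was at 0.38, 0.76 and 0.19 CPM, then 0.72, 1.06 and 1.89, then 2.68, 2.73 and 2.42. Its rises of 1.43 ± 0.52 (0.038) and 1.10 ± 0.40 (0.030) rest on few reads, and leaving out any 1 of 4 libraries ended each call (0.0529 to 0.275 and 0.0680 to 0.164).

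Slc31a1 was at 70.6, 59.6 and 54.8 CPM in Cre baseline, 71.1, 73.5 and 73.5 in Clec7aneg and 99.8, 117 and 101 in Clec7apos CD229neg cells. It rose in the Clec7a step by 0.56 ± 0.09 (adjusted p = 9.0e-06). Atox1 was at 23.2, 25.9 and 23.2 CPM, then 31.9, 39.4 and 41.3, then 59.2, 61.8 and 63.3, with rises of 0.62 ± 0.12 (0.00022) and 0.73 ± 0.12 (6.1e-06). Sod1 rose by 0.43 ± 0.14 (0.019) and 0.46 ± 0.14 (0.0078), and Commd1 in the Clec7a step by 0.51 ± 0.13 (0.0021). The first Sod1 call was lost without Cre baseline replicate 1 or Clec7aneg replicate 2 or 3 (0.0622 to 0.184), and the second without Clec7aneg replicate 1 (0.0841).

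Between CD229pos and CD229neg cells within Clec7apos 0 of 9 members passed by edgeR or DESeq2, against 5.53% of all genes, and 1 had an unadjusted p under 0.05. In the CD11c step 1 of 9 rose, against 14.1% called and 6.85% rising, and it was again Slc31a2, at 70.2, 72.5 and 76.8 CPM in CD11cpos cells (0.27 ± 0.08, adjusted p = 0.027). Leaving out any 1 of 4 libraries ended this call (0.0612 to 0.157).

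Between Mef2aKO and Cre cells 1 member passed in 1 gate. By edgeR and by DESeq2, 0 of 9 passed at baseline (3.84% of all genes called), in Clec7apos CD229neg cells (3.7%), in Clec7apos CD229pos cells (4.9%) or in CD11cpos cells (4.69%), and in these 4 comparisons 0 had an unadjusted p under 0.05. In Clec7aneg cells 1 of 9 was lower, against 5.53% called and 3.91% lower. This was Atox1, at 22.4 and 30.7 CPM in Mef2aKO cells against 31.9, 39.4 and 41.3 in Cre cells (-0.48 ± 0.14, adjusted p = 0.037). The call was lost without any 1 of 3 libraries (0.112 to 0.574), and without Mef2aKO Clec7aneg replicate 2 the difference was -0.73. Within Mef2aKO mice, Mt1 rose from baseline (18.7, 23.4 and 18.0 CPM) to Clec7aneg cells (28.9 and 29.2 CPM) by 0.54 ± 0.14 (0.0097), the only member of 9 to pass, against 7.85% of all genes called and 5.01% rising. That call was lost without either Clec7aneg library (0.0544 to 0.0780) or with only the compared groups (0.0743). The difference between the Mef2aKO and Cre diet steps passed for 0 of 9 members, against 1.39% of all genes, with 2 at an unadjusted p under 0.05 and 0 by DESeq2. CD229pos and CD229neg Mef2aKO cells at baseline differed for 0 of 8 tested members by edgeR, by DESeq2 and at an unadjusted p under 0.05, against 0.15% of all genes. Mt1 was at 20.9 and 22.1 CPM in the former and at 19.3, 20.4 and 21.7 CPM in the latter.

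In Cre cells at 6 weeks Mt1 and Slc31a1 rose with CD229, and Mt1, Atox1 and Slc31a2 with CD11c. From Cre baseline to CD229neg cells 0 of 9 members passed by edgeR or DESeq2, against 5.85% of all genes, and 1 had an unadjusted p under 0.05. Mt1 (17.7, 19.2 and 24.6 CPM) had 0.17 ± 0.17. From CD229neg to CD229pos cells 2 of 9 rose, against 17.2% called and 10.7% rising. Mt1 reached 31.4, 36.8 and 28.7 CPM (0.63 ± 0.16, adjusted p = 0.0060), and Slc31a1 went from 69.4, 68.7 and 74.9 to 89.1, 91.1 and 85.7 CPM (0.31 ± 0.08, 0.0076). With CD11c 3 of 9 rose, against 17.2% called and 8.64% rising: Mt1 to 53.0, 45.9 and 38.9 CPM (0.49 ± 0.15, 0.024), Atox1 (0.40 ± 0.13, 0.033) and Slc31a2 (0.23 ± 0.08, 0.045). Each of these 3 calls was lost when only libraries whose titles carry a PE150 tag were used, and without any 1 of 3 to 8 libraries. Slc31a2 was called higher in CD11cpos cells at 4, 5 and 6 weeks, and the calls at 5 and 6 weeks were lost without some libraries.

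Between Egr2KO and Cre cells the only member to pass was Sod1, in 1 gate. By edgeR and by DESeq2, 0 of 9 passed at baseline (0.182% of all genes called), in CD229neg cells (0.19%), in CD11cpos cells (0.25%) and in whole populations at 5 weeks (0.92%). At an unadjusted p under 0.05 these comparisons gave 0, 1, 2 and 1 members. In CD229pos cells 1 of 9 was higher, against 2.46% called and 1.42% higher. Sod1 was at 51.0, 54.8 and 50.4 CPM in Egr2KO and 38.5, 37.8 and 33.2 in Cre libraries (0.52 ± 0.12, adjusted p = 0.015). The call was lost without Cre CD229pos replicate 3 or Egr2KO CD229pos replicate 2 (0.102 to 0.115). Within Egr2KO mice, Slc31a1 (0.41 ± 0.09, 0.0053) and Atox1 (0.64 ± 0.16, 0.010) rose from baseline to CD229neg cells, 2 of 9 against 8.23% of all genes called and 6.52% rising. Without Egr2KO baseline replicate 2 the Slc31a1 call was lost (0.0938), and without any 1 of 3 libraries the Atox1 call (0.0655 to 0.110). The difference from the Cre diet step passed for 0 of 9, also by DESeq2 and at an unadjusted p under 0.05, against 0.0303%. The Egr2KO baseline libraries all carry the PE150 tag and the Cre baseline libraries do not. In each 6-week gate replicates 2 and 3 carry it and replicate 1 does not. The baseline comparison, the diet steps and their difference therefore mix the tag with genotype or diet. With the tag as a covariate no member call changed.

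**Figure D3:**
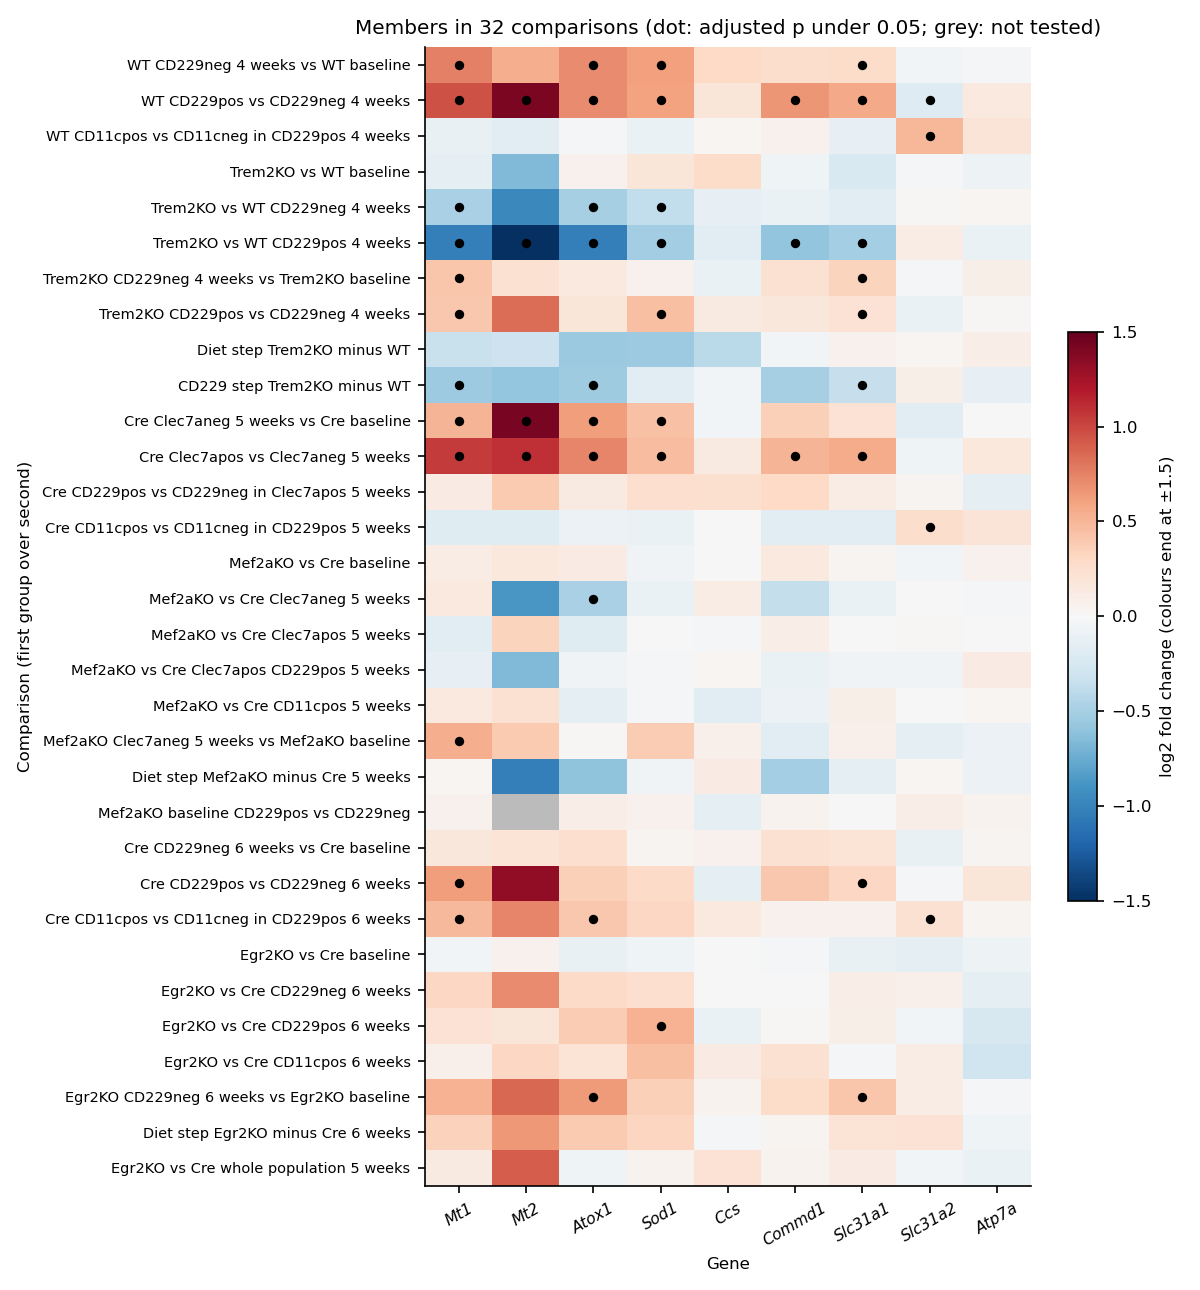
Log2 fold change (colour) of the 9 members (horizontal axis) in the 32 comparisons (vertical axis). Dots mark an adjusted p under 0.05 and grey marks a member that was not tested. Of the 50 dots, Mt1 has 12 and Atp7a and Ccs have 0. Comparisons share groups, so the dots are not independent.

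Over all 32 comparisons, 50 of 287 member results passed. In single comparisons 0.0303% to 52.5% of all genes were called, as given with each above. The comparisons share groups and libraries, so these are not independent calls and the tallies do not rank the members. Mt1 was called higher in 9 and lower in 3, Slc31a1 in 7 and 2, Atox1 in 6 and 4, Sod1 in 6 and 2, Mt2 in 3 and 1, Slc31a2 in 3 and 1, Commd1 in 2 and 1, and Atp7a and Ccs in 0. Of the 50 calls, 25 were kept under every alternative that was run, and none changed sign.

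Several of the members that moved have very short transcripts, and short transcripts moved as a class. The listed transcripts are 508 bases for Atox1, 537 for Mt1, 551 for Mt2, 630 for Sod1 and 813 for Commd1. Those of Ccs (1047), Slc31a2 (1835), Slc31a1 (3737) and Atp7a (8170) are longer. In the WT CD229 step the 1093 tested genes with transcripts under 1000 bases had a median log2 fold change of 0.30, and the longer genes -0.03. In Trem2KO against WT CD229pos cells the medians were -0.37 and 0.03. In the WT diet step they were 0.25 and -0.01, and in the Clec7a step 0.26 and -0.01. Of genes with transcripts under 1000 bases 38.5% rose in the WT CD229 step, against 23.3% of the longer genes. In the WT diet step 30.6% and 17.6% rose, and in the Clec7a step 32.5% and 19.7%. For Trem2KO against WT CD229pos cells 43.2% and 25% were lower.

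An added alternative removed a smooth trend with transcript length from each library. The trend was that of log2 CPM, relative to each gene's mean, and entered the fit as an offset. Under it 31 of the 50 calls were kept. For members under 1000 bases 19 of 37 were kept, with a median ratio to the reported value of 0.553. For the longer members 12 of 13 were kept, at a median ratio of 1.10. Mt1 then had 0.37 in the WT diet step and 0.54 in the WT CD229 step. It had 0.64 in the Clec7a step and -0.57 for Trem2KO against WT CD229pos cells, and passed in all 4. Atox1 also passed in those 4, at 0.32, 0.30, 0.32 and -0.56. Slc31a1 kept or widened its differences there, at 0.30, 0.66, 0.60 and -0.59.

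Sod1 in Trem2KO against WT CD229pos cells went to -0.11 (adjusted p = 0.28) and Commd1 to -0.27 (0.098), and neither passed. Lost too were Mt1, Atox1 and Sod1 in CD229neg cells of the same genotypes (0.118 to 0.372), and Mt2 in the WT CD229 step (0.078). So were Mt2, Sod1 and Commd1 in the Clec7a step, and Mt2 and Sod1 from Cre baseline to Clec7aneg cells. The smaller CD229 step in Trem2KO was kept for Slc31a1 (-0.41) and lost for Mt1 (-0.36, 0.12) and Atox1 (-0.35, 0.059). The 3 calls of the 6-week CD11c step, Atox1 in the Egr2KO diet step and Mt1 in both Trem2KO steps were lost as well. Under this alternative 8 results passed that the reported fit had not called. Atp7a rose in the WT CD229 step (0.31, adjusted p = 9.7e-05) and the Clec7a step (0.26, 0.0057). It also rose in the 6-week Cre CD229 step (0.22, 0.016). In Trem2KO it was lower than in WT CD229pos cells (-0.30, 5.4e-05), with a smaller CD229 step (-0.23, 0.044). The rest were Slc31a1 and Slc31a2 results. The part of transcript length in these results was not tested further.

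**Figure D4:**
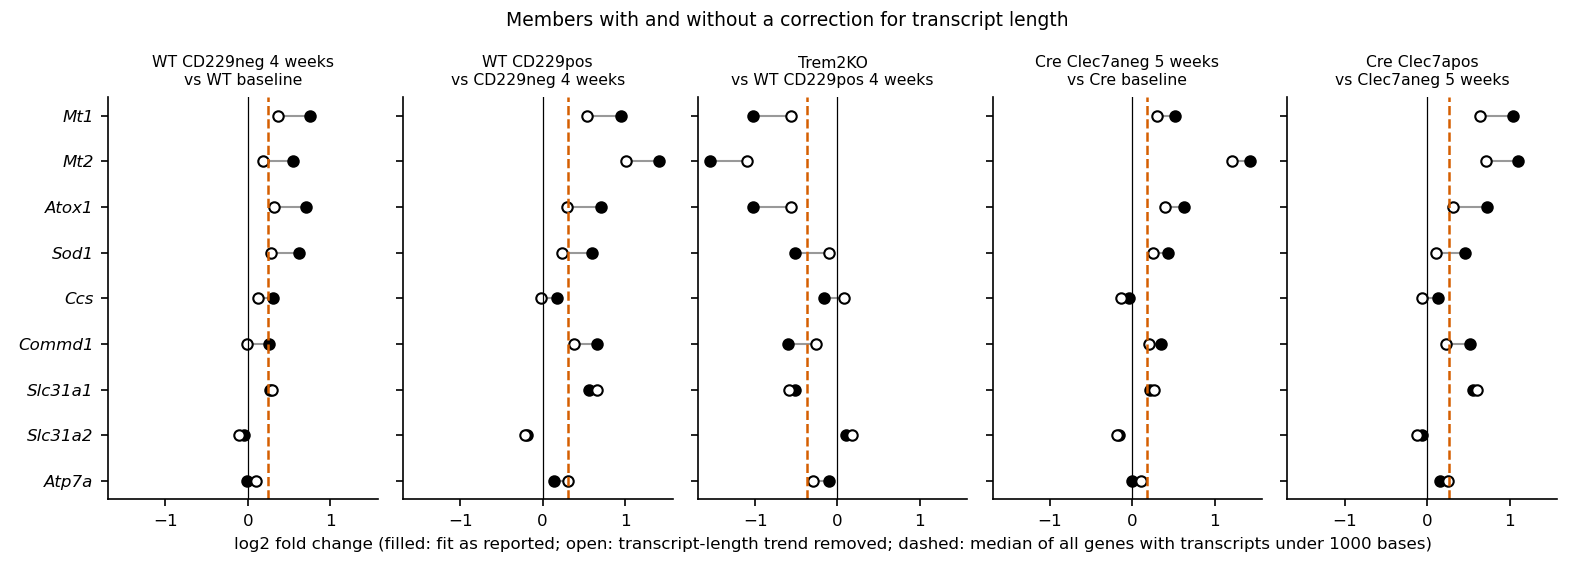
Log2 fold change (horizontal axis) of each member (vertical axis) in 5 comparisons (panels), as reported (filled) and with the trend over transcript length removed (open). The dashed line is the median of genes with transcripts under 1000 bases, for example 0.30 in the WT CD229 step, and the open points of Mt1, Atox1 and Sod1 lie nearer 0 than the filled ones.

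Other genes of copper and zinc handling were read from lists, whose counts stand against the shares over all genes: 30.4% called and 18.8% rising in the WT diet step, 48.8% and 24.6% in the WT CD229 step, 28.8% and 15.5% in the Cre diet step, and 37.9% and 20.9% in the Clec7a step. In Trem2KO against WT CD229pos cells 52.5% were called and 26.5% were lower. The medians over all genes lay between -0.01 and 0.01. Of 6 tested genes of copper import and export, 2 rose in the WT diet step, near the share of all genes called. In the WT CD229 step 2 rose and 1 fell, in Trem2KO against WT CD229pos cells 2 were lower, and in the Clec7a step 2 rose. The divalent metal transporter Slc11a2 was called with Slc31a1 each time (0.59 ± 0.07, 0.35 ± 0.07, -0.54 ± 0.06 and 0.57 ± 0.08). Of 9 genes that deliver copper to mitochondria, 6 rose and 1 fell in the WT CD229 step, and 2 were higher and 5 lower in Trem2KO CD229pos cells, with list medians of 0.52 and -0.52. Slc25a3, the carrier of phosphate and copper into mitochondria, had 0.52 ± 0.06 and -0.53 ± 0.06, and the copper chaperone Cox17 0.62 ± 0.21 and -0.70 ± 0.20. Sco1, which helps load cytochrome oxidase and is named after its values were seen, went the other way (-0.32 ± 0.11 and 0.28 ± 0.10).

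Among 5 secreted and other copper enzymes, 1 rose and 1 fell in the WT CD229 step. Lox, the lysyl oxidase that cross-links collagen, had 2.05 ± 0.27 in the WT diet step, 1.73 ± 0.21 in the CD229 step and -2.84 ± 0.21 in Trem2KO against WT CD229pos cells. In the Clec7a step it had 2.03 ± 0.15. Of 15 genes of the COMMD proteins and the retriever complex, 7 rose and 2 fell in the WT CD229 step, where 48.8% of all genes were called, and the list median was 0.19. Commd9 had 0.61 ± 0.10 and Commd8 -0.49 ± 0.06, and in Trem2KO CD229pos cells -0.60 ± 0.09 and 0.32 ± 0.05. The list therefore did not move 1 way.

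Of the metallothionein list, Mt1, Mt2 and their regulator Mtf1 were tested. Mtf1 fell by -0.24 ± 0.10 (adjusted p = 0.046) in the WT CD229 step, where Mt1 and Mt2 rose. Mt3 and Mt4 were too low to test in those fits, with Mt4 at 0 counts in every library. Of 18 zinc transporters, 6 rose and 3 fell in the WT CD229 step (48.8% of all genes called), and 2 were higher and 9 lower in Trem2KO CD229pos cells (52.5% called). The list medians were 0.07 and -0.16. The zinc importers Slc39a14 (1.35 ± 0.15 and -1.36 ± 0.14) and Slc39a12 (-3.24 ± 0.30 and 3.35 ± 0.28) moved in opposite directions.

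Of 15 antioxidant response genes, 9 rose in the WT diet step (18.8% of all genes rose), and 6 rose and 1 fell in the WT CD229 step, near the 48.8% called over all genes. In the Clec7a step 10 rose and 1 fell (20.9% of all genes rose). In Trem2KO CD229pos cells 12 were lower and 1 was higher (26.5% of all genes lower). The list medians in these 4 comparisons were 0.28, 0.16, 0.27 and -0.45. The heme-degrading enzyme Hmox1 had 0.69 ± 0.11, 1.08 ± 0.11, 1.09 ± 0.08 and -1.12 ± 0.10 in these 4 comparisons, and the peroxidase Prdx1 0.59 ± 0.08, 0.74 ± 0.08, 0.81 ± 0.10 and -0.66 ± 0.08. Of 9 protein lipoylation genes, whose products are tied to copper toxicity, 0 passed in the WT diet step, and 1 rose in the CD229 step and in the Clec7a step.

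Glucocorticoids and stress also act on metallothionein genes, so those lists are given beside Mt1 and Mt2. Of 7 glucocorticoid-responsive genes, 2 rose in the WT diet step and 1 rose and 2 fell in the WT CD229 step, no more than the 30.4% and 48.8% of all genes called. From Cre baseline to Clec7aneg cells 4 rose (15.5% of all genes rose), and in the Clec7a step 2 rose and 1 fell (37.9% called). Fkbp5, a glucocorticoid-induced chaperone, had 0.58 ± 0.10, 0.70 ± 0.09, 0.43 ± 0.06 and 0.43 ± 0.06 in those 4 comparisons, and -0.61 ± 0.09 in Trem2KO against WT CD229pos cells. From Cre baseline to Clec7aneg cells 6 of 7 heat shock genes and 9 of 9 immediate early genes rose, the latter with a median of 2.32. In the WT diet step 1 heat shock gene rose and 2 fell, and 2 immediate early genes rose. The part of these responses in the Mt1 and Mt2 results was not tested.

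Markers of other cell types moved with some of these steps. Over all genes 28.8% were called from Cre baseline to Clec7aneg cells, and 15.5% rose. In the Clec7a step 20.9% of all genes rose, and in the WT CD229 step 48.8% were called and 24.6% rose. In the 6-week Cre CD229 step 17.2% were called and 10.7% rose, and 26.5% were lower in Trem2KO against WT CD229pos cells. From Cre baseline to Clec7aneg cells 6 of 8 border macrophage markers fell and 1 rose, and all 8 rose in the Clec7a step. Their summed level, over the 6 markers present in all tables, ran from 24.4 to 146 CPM at Cre baseline, 15.9 to 25.4 in Clec7aneg and 67.2 to 146 in Clec7apos CD229neg cells. In the WT CD229 step 1 of 8 rose, with sums of 49.5 to 154 CPM in CD229neg and 42.7 to 173 in CD229pos cells, and in Trem2KO against WT CD229pos cells 2 were lower. Of 3 tested endothelial markers, 1 rose and 2 fell in the WT CD229 step. Their sum went from 86.1 to 116 CPM in CD229neg to 264 to 283 in CD229pos cells, while Cldn5 was at 0 at the median of the libraries. In Trem2KO CD229pos cells it was 26.2 to 29.4 CPM. Summed astrocyte markers were 137 to 143 CPM in WT CD229neg, 84.9 to 96.3 in WT CD229pos and 190 to 208 in Trem2KO CD229pos cells. In the 6-week Cre CD229 step 7 of 8 border macrophage markers rose, with sums of 56.2 to 80.7 CPM in CD229neg and 123 to 315 in CD229pos cells, and summed monocyte markers went from 8.30 to 14.4 CPM to 22.8 to 30.7, with 1 of 3 tested called. Summed endothelial markers went from 73.3 to 74.1 CPM to 91.7 to 183 there, and were 78.4 to 90.3 CPM in Clec7aneg and 181 to 212 in Clec7apos CD229neg cells. Summed astrocyte markers were 205 to 221 CPM at WT baseline, above the WT CD229neg range given, and were 206 to 254 at Cre baseline and 134 to 165 in Clec7aneg cells. Sod1 was called higher in Egr2KO than in Cre 6-week CD229pos cells. There summed monocyte markers were 12.9 to 16.8 CPM in Egr2KO and 22.8 to 30.7 in Cre libraries. Border macrophage sums were 90.6 to 165 and 123 to 315, and endothelial sums 197 to 267 and 91.7 to 183. The part of these cell markers in the member results was not tested.

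Likeness of pattern was measured as Pearson's r of log2 CPM over the 28 group means, which share controls and depth, and is given as a description. Mt1 was closest among the members to Slc31a1 (0.970), Atox1 (0.968), Sod1 (0.967), Commd1 (0.955) and Mt2 (0.953). It was further from Ccs (0.71) and Atp7a (0.61), and its r with Slc31a2 was 0.03. Among 9491 candidate genes the nearest to Mt1 were Tpcn2 (0.988), Sri (0.984) and Eif4b (0.983). Urm1 (0.956) was nearest to Mt2, Pgm2 (0.984) to Slc31a1, Aldoa (0.991) to Atox1, Ndufa13 (0.987) to Sod1 and Atp5o (0.979) to Commd1. For the members that varied little, the nearest were less alike: Cic (0.882) for Slc31a2, Foxn2 (0.857) for Atp7a and Ccdc124 (0.844) for Ccs.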

How the data were processed

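Microglial RNA was measured in 81 libraries. The authors deposited raw read counts per gene, 1 RefSeq transcript per gene, as whole numbers. STAR 2.7.0f, fastp 0.20.0, HOMER 4.11 and DESeq2, with mm10/GRCm38, are named in the submitters' processing notes without their roles. The labels do not say whether libraries of a group came from separate sorts, so p-values measure the spread between these libraries, which may be partly technical. The 4-week libraries of WT and of Trem2KO come from separate tables, joined over the 24910 genes with identical counts in the baseline libraries they share. The other 214 genes were left out there.

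Groups of 1 experiment were modelled together in edgeR 4.0.16 under R 4.3.3 (filterByExpr, TMM, 1 mean per group, quasi-likelihood test). The 5 fits, of 4 weeks, 5 weeks, baseline gates, 6 weeks and whole populations, covered 12647, 13204, 12628, 13187 and 12387 genes. They left 16, 19, 7, 15 and 2 residual degrees of freedom. P-values were adjusted by Benjamini-Hochberg over all tested genes, with 0.05 as the threshold. Levels are CPM after TMM over all 81 libraries, and RPKM uses the length of the listed transcript. The fit was also run on simulated counts with known changes of 2 and 4 times, in 1 comparison per experiment. Smaller changes and a transcript-length trend were not simulated, so that run does not check them. Relative to counting noise, the chi-square over all genes between replicate pairs was 1.56 to 15.9 (median 4.29). Counting intervals would cover counting error only.

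The members and lists were chosen with earlier results of these data known. All 9 members are named in every comparison. From each list up to 4 genes per comparison may be named, by smallest adjusted p, and up to 3 genes most like each member. The lists were copper import and export, cytosolic copper chaperones (all of them members), mitochondrial copper delivery, copper enzymes, COMMD and retriever, metallothioneins, zinc transporters, antioxidant response, glucocorticoid-responsive, heat shock, immediate early and lipoylation genes, and markers of 10 cell types. Same-numbered libraries deviated together in every pair (r over 0.1) only in the 6-week Cre CD229 step (0.17 to 0.288). The replicate block called 2 members there, as the fit without it did. Without meeting that cut-off, they were the best match in 3 of 3 pairs of the WT CD229 step (0.0679 to 0.198). The same held in the WT, 5-week Cre and 6-week Cre CD11c steps (0.0269 to 0.178). In the Clec7a step and the 5-week CD229 step it was 1 of 3. The reported fit does not model such pairing.

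Alternatives were DESeq2's size factors, DESeq2 1.42.0, no filter, only the compared groups, a replicate block, the PE150 title tag (as a covariate, or only tagged libraries; its meaning is not stated), the WT table alone and each library left out. Removal of the transcript-length trend was added after seeing the data.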

Additional observations from a re-analysis of the deposited data

Results flagged for a closer look

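Of 18 sets of 4 libraries (a member in a group), 1 had a library far from the others. Slc31a2 in Trem2KO CD229neg cells was at 63.0, 64.0 and 63.1 CPM in 3 libraries and at 58.4 CPM in the fourth. Chance gives such a gap in about 1 in 20 sets, which is close to 1 in 18.

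The step from CD229neg to CD229pos cells at 4 weeks was smaller in Trem2KO than in WT mice for 3 members, by edgeR's test of the difference itself. The log2 differences were -0.54 for Mt1, -0.35 for Slc31a1 and -0.53 for Atox1. With the transcript-length trend removed, Slc31a1 had -0.41 and passed, and Mt1 (-0.36) and Atox1 (-0.35) did not.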

How the results depend on the processing

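No call of a member changed sign under any alternative, and 211 of the 237 uncalled results were never called. The count of members called moved by over 1.5 times as follows, and smaller moves (such as 7 to 6 or 8 in the WT CD229 step, 4 to 3 or 5 in the Cre diet step and 3 to 2 or 4 in the 6-week CD11c step) are not listed. With no filter it went from 1 to 2 in the WT CD11c step, from 0 to 2 in the difference of the Trem2KO and WT diet steps, from 1 to 2 in the Mef2aKO diet step and from 0 to 1 in the difference of the Mef2aKO and Cre diet steps. It went from 1 to 2 for Egr2KO against Cre CD229pos cells and from 0 to 1 for CD11cpos cells. With only the compared groups it was 2 in the WT CD11c step, 1 rather than 2 in the Trem2KO diet step, 2 rather than 1 in the 5-week CD11c step, 0 rather than 1 in the Mef2aKO diet step and 1 for Egr2KO against Cre CD11cpos cells. The WT table alone gave 2 in the WT CD11c step, and DESeq2 gave 1 for the difference of the Trem2KO and WT diet steps.

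Every same-numbered pair had r over 0.1 only in the 6-week Cre CD229 step. A replicate block elsewhere gave 1 member in the Trem2KO diet step (Mt1 lost, adjusted p 0.151), 2 in the difference of the Trem2KO and WT diet steps and 0 for Mef2aKO against Cre Clec7aneg cells (Atox1 lost, 0.0998). In the 6-week CD11c step it gave 4 rather than 3, and it changed no other comparison's count. Removing the length trend lost all 3 members called for Trem2KO against WT CD229neg cells. It called 1 other member there, Slc31a1 (-0.18, adjusted p = 0.036). It gave 1 in the Trem2KO diet step, 0 in the 6-week CD11c step and 1 in the Egr2KO diet step. With only PE150 libraries there were 0 in the 6-week CD11c step, 2 for Egr2KO against Cre CD229pos cells and 4 in the Egr2KO diet step. The cause was not tested.

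Leaving out 1 library gave 4 to 5 members in the WT diet step, 5 to 7 in the WT CD229 step, 1 to 2 in the WT CD11c step, 1 to 3 for Trem2KO against WT CD229neg cells, 6 for CD229pos cells, 1 to 3 in the Trem2KO diet step and 3 in its CD229 step. The differences of those steps gave 0 to 2 and 1 to 3. At 5 weeks it gave 2 to 6 in the Cre diet step, 4 to 6 in the Clec7a step, 0 to 1 in the CD11c step, 0 to 1 for Mef2aKO against Cre Clec7aneg cells, 0 to 2 in the Mef2aKO diet step and 0 to 1 for its difference from Cre. At 6 weeks it gave 0 to 1 in the Cre diet step, 2 to 4 in the CD229 step and 0 to 4 in the CD11c step. For Egr2KO it gave 0 to 1 against Cre in CD229pos and in CD11cpos cells and 0 to 3 in the diet step. The other comparisons stayed at 0. A gate left with 1 library was assumed to vary like the others.

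Counts over all genes moved by over 1.5 times in 24 of 32 comparisons, in 23 of them when 1 library was left out and in 14 under other alternatives. Over all alternatives, 73 genes became 6 to 288 for Trem2KO against WT at baseline and 2568 became 1362 to 3079 in CD229neg cells. The Trem2KO diet step went from 921 to between 575 and 1110, and its difference from WT from 500 to between 233 and 972. For Mef2aKO against Cre, 507 became 93 to 815 at baseline, 730 became 299 to 1001 in Clec7aneg, 488 became 315 to 610 in Clec7apos CD229neg, 647 became 425 to 819 in Clec7apos CD229pos and 619 became 380 to 893 in CD11cpos cells. The Mef2aKO diet step went from 1036 to between 372 and 1255, its difference from Cre from 184 to between 25 and 440, and the baseline gates from 19 to between 1 and 184. In Cre mice, 730 became 343 to 940 for CD229 within Clec7apos and 1861 became 1169 to 2269 in the CD11c step at 5 weeks. At 6 weeks 772 became 457 to 1139 in the diet step, 2269 became 1268 to 2655 in the CD229 step and 2264 became 1277 to 2664 in the CD11c step. For Egr2KO against Cre, 24 became 1 to 166 at baseline, 25 became 2 to 167 in CD229neg, 325 became 72 to 834 in CD229pos, 33 became 3 to 162 in CD11cpos cells and 114 became 97 to 339 in whole populations. The Egr2KO diet step went from 1085 to between 394 and 1446, and its difference from Cre from 4 to between 0 and 144. Removing the length trend moved the share of calls that were higher from 61.0% to 49.5% for the difference of the Trem2KO and WT CD229 steps and from 63.8% to 74.7% for the Mef2aKO diet step. Of 252 group levels, 2 moved by over 1 SD with DESeq2's size factors and 21 with no scaling. Depth limits Mt2, with a median of 12 reads per library.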
